A study of Mus musculus with 14 samples.

Results

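Hepatocytes after 3 weeks of culture (BM 3W) were compared with hepatocytes sequenced straight after isolation (FH), across all genes. The comparison used 4 of the 14 libraries of the series, 2 of BM 3W and 2 of FH, chosen by their labels alone. BM is the name the labels give to this culture and is not spelled out there. All 4 libraries came from liver cells of C57BL/6 mice, and none of them carries the Yap-/- mark that the labels give to other groups. The labels used here give no sex, age, medium or culture surface, nor whether libraries within 1 group are separate animals or cultures. The p-values therefore measure no more than the spread between libraries of a group, estimated over all 14 libraries of the series. That spread may be technical. The series asks whether limiting tension-driven activation of YAP keeps hepatocyte functions in culture, and it also holds BM libraries taken after 1 day (BM 1D) and 3 days (BM 3D), 2 of each, which are used below to place the 3-week values in time.

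Hepatocytes secrete most plasma proteins, make urea and bile acids, and clear drugs through cytochrome P450 enzymes and conjugation. When they are spread on a plate they are known to flatten, to lose these functions and to turn on genes of the cytoskeleton and of the extracellular matrix. YAP is a co-activator that works with TEAD transcription factors and is known to enter the nucleus when cells spread and pull on their surface. In the liver, hepatocytes lie beside stellate cells, Kupffer cells, endothelial cells and bile duct cells, and isolated hepatocytes can hold some of these neighbours.

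Library depth was even, with 19546748 and 19756539 counts in BM 3W and 19353371 and 19494797 counts in FH. Counts were spread over more genes after culture: 769 and 946 genes held 50% of the counts in BM 3W, against 127 in each FH library. The FH libraries were close to each other, where the chi-square of their gene counts divided by its degrees of freedom was 5.49. The BM 3W libraries stood apart, at 152.3, by this measure, in which abundant genes weigh most. Gene by gene the contrast was smaller: the standard deviation of the log2 difference between libraries was 0.498 in FH and 0.700 in BM 3W. Albumin held 4.35 and 0.482% of the counts in BM 3W libraries 1 and 2, against 10.1 and 9.72% in FH. Pairs of values below give library 1 before library 2, and the number of calls without each BM 3W library follows.

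Most of the genes tested differed. Levels are CPM, the count of a gene per unit of library size after TMM scaling, fold changes are BM 3W over FH on the log2 scale with their standard error, and a gene was called when its adjusted p in edgeR's quasi-likelihood test lay under 0.05. Of 14100 genes tested, 8328 were called (59.1%), 4653 higher in BM 3W (33.0%) and 3675 lower (26.1%). Without BM 3W library 1 the calls numbered 6979, with 3899 higher and 3080 lower, and without BM 3W library 2 they numbered 6520, with 3765 higher and 2755 lower. The words rose and fell are used below only of genes called in this way. For genes with 0 counts in 1 group a lower bound on the fold is given, with that group placed at 3 counts per library, and for genes with 1 to 3 counts in a group the fold comes with its 95% exact binomial interval, which covers counting error only.

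The split between rises and falls depended on scaling. TMM factors were 1.49 and 1.69 in BM 3W, against 0.650 and 0.648 in FH, and the median log2 fold change of all genes was 0.17. Scaled to total counts instead, the median was 1.46, a shift of 1.29, and 9281 genes were higher (65.8%) and 1364 lower (9.67%). Every one of the 4653 genes higher under TMM was also higher by total counts. Since total counts move the folds upward, a rise that is kept under both scalings is little further check, here and in the lists below. Of the 3675 lower genes, 1364 were also lower by total counts and 322 were called higher. Counts of members by total counts are therefore given below for the lists where the split of calls moved.

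**Figure D1:**
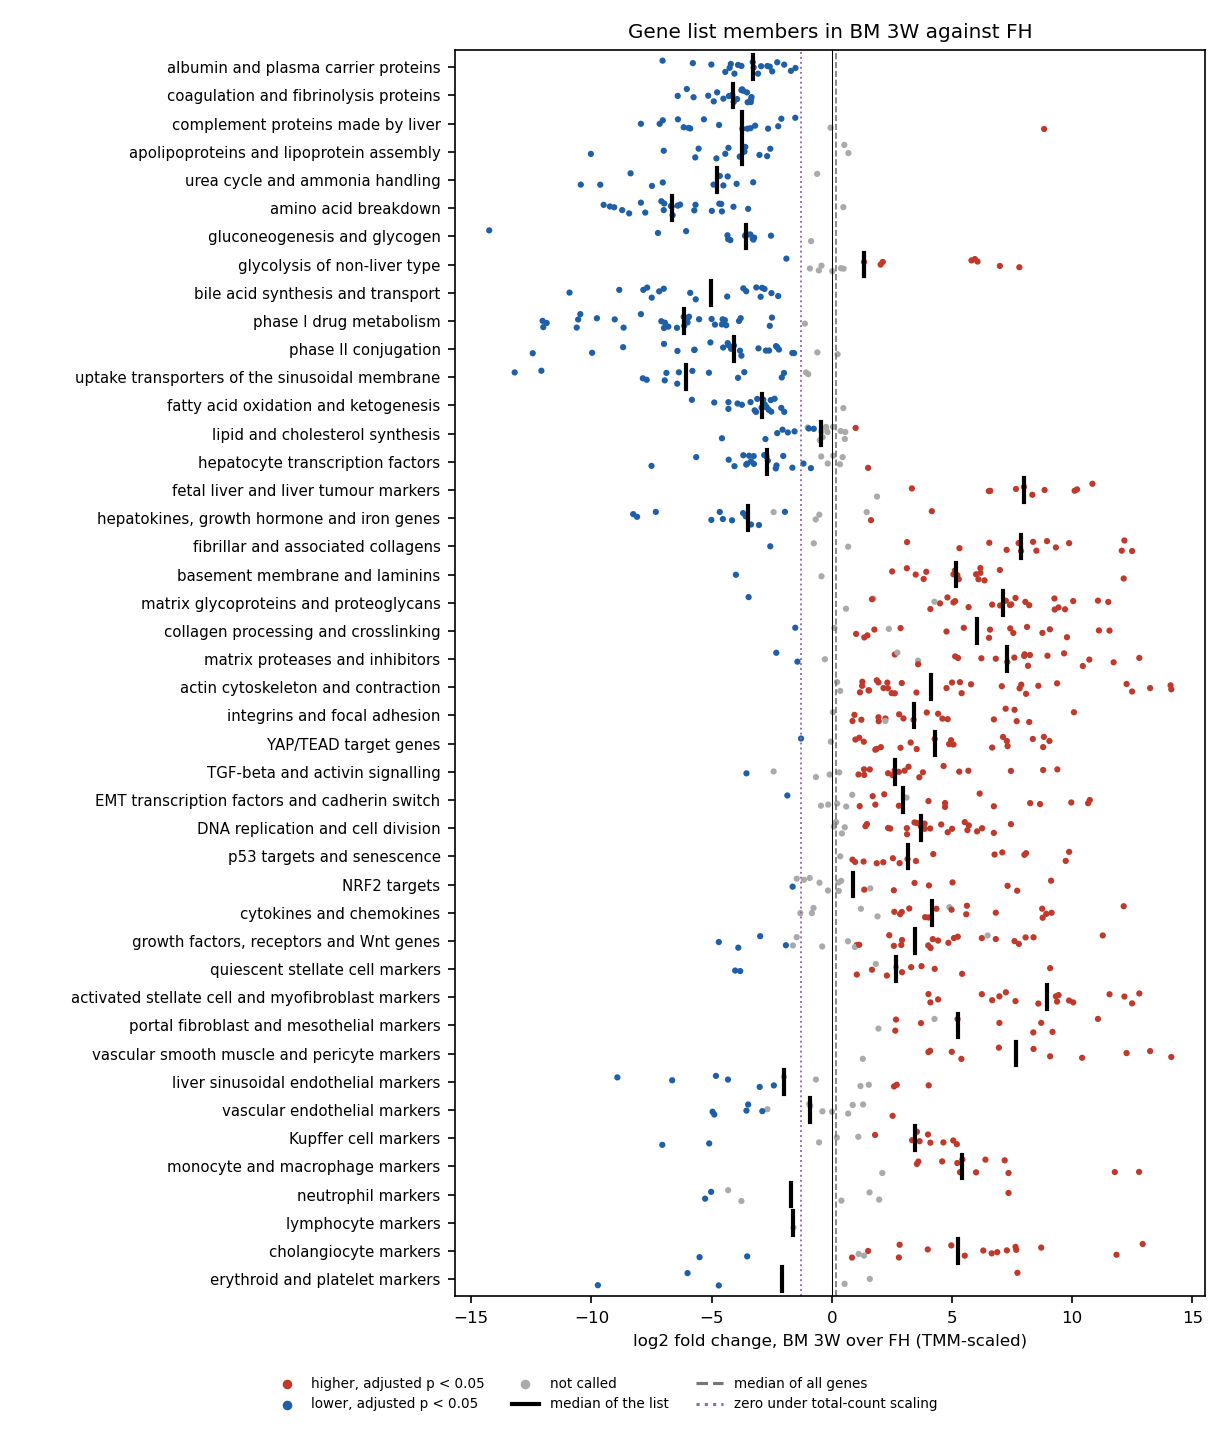
Log2 fold change of each tested member of 44 gene lists, BM 3W over FH, coloured by call, with the median of each list as a black bar. The dashed line is the median of all genes tested, 0.17, and the dotted line marks where 0 would lie under total-count scaling; lists of hepatocyte functions lie mostly left of both lines and lists of matrix and cytoskeleton mostly right. Values of genes at 0 counts in a group are fitted and are not bounds.

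Secreted plasma proteins fell as a block. All 20 albumin and plasma carrier genes tested fell (median log2 -3.27, against 0.17 for all genes tested), 14 of them also by total counts. All 20 coagulation and fibrinolysis genes fell under both scalings (median -4.11). Of 19 genes in the list of complement made in liver, 17 fell, 1 did not pass and 1, F13a1, rose (15 fell and 2 rose by total counts). F13a1 is a coagulation gene that was filed in this list. It is not among the 20 coagulation genes counted above. F13a1 encodes the A chain of factor XIII, which in blood comes from platelets and macrophages, and it stood at 32.4 and 9.40 CPM in BM 3W, against 0.0795 and 0 CPM in FH (507-fold, counting interval 90.8 to 20043).

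The size of the fall varied within the block. Albumin itself (Alb) stood at 29183 and 2850 CPM in BM 3W, against 155088 and 149910.0 CPM in FH (log2 -3.25 ± 1.16, adjusted p = 0.0316). Both BM 3W values lay below both FH values, but the BM 3W libraries differed from each other by far more than the FH libraries did, and the call, which held in 9 of 13 alternatives, was lost by total counts (log2 -2.03, adjusted p = 0.0684) and without either FH library. Serpina6, the carrier of corticosteroids, fell further, to 8.23 and 0.300 CPM in BM 3W, against 562 and 555 CPM in FH (log2 -7.04 ± 1.31, adjusted p = 0.000961). Hrg, a histidine-rich glycoprotein of plasma, and Klkb1, plasma prekallikrein, had log2 fold changes of -6.41 ± 0.97 and -6.03 ± 0.84. The terminal complement gene C8b stood at 10.7 and 0.150 CPM in BM 3W, against 1321 and 1329 CPM in FH, and its call held under every alternative. At the other end, Hp, haptoglobin, was at 1443 and 709 CPM in BM 3W, against 3081 and 3040 CPM in FH (log2 -1.51 ± 0.49, a call that held in 7 of 13 alternatives).

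Of 16 apolipoprotein and lipoprotein assembly genes, 14 fell and 2 did not pass (13 fell and 1 rose by total counts, median -3.73). Apoa5, a regulator of plasma triglyceride, showed the largest change of the list, with 2.40 and 0.270 CPM in BM 3W, against 1355 and 1400 CPM in FH (log2 -10.02 ± 1.42, adjusted p = 0.000164). Apoe stood at 5104 and 2143 CPM in BM 3W, against 23026 and 23701 CPM in FH, and it ranked 4th by FPKM in BM 3W, where fragments are counted per length, and 2nd in FH. Apoa4 did not pass, with 1 BM 3W library above and the other below both FH libraries, at 362 and 14.3 CPM, against 132 and 131 CPM in FH.

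Promoters of 3 secreted proteins were picked because they hold letters of the motif of HNF1. This hepatocyte transcription factor is known to bind near the start of such genes. Alb and Fgb are members of the lists above that fell, whereas Afp is a member of the fetal list below. The 150 bases before the annotated start were read from RefSeq (GRCm38.p6), and the letters GTTAAT or its reverse complement ATTAAC, part of the HNF1 motif, are in capitals. Alb lies at chr5:90460720-90460869 on the plus strand, with the letters 32 bases before the start. Fgb, the beta chain of fibrinogen, lies at chr3:83049864-83050013 on the minus strand, with the letters 29 bases before the start. Afp, alpha-fetoprotein, lies at chr5:90490564-90490713 on the plus strand, with the letters 105 bases before the start.
Alb: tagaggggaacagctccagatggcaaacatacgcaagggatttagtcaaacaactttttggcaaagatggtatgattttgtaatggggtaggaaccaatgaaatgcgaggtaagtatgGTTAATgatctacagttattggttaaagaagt
Fgb: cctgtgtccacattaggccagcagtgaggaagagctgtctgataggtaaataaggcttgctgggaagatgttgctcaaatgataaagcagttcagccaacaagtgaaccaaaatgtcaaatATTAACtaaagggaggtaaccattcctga
Afp: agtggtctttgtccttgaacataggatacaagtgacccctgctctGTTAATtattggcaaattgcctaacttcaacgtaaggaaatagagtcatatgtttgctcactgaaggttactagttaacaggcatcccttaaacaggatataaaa
On both strands, these letters stood in the same window of 4 of 15 plasma carrier genes with an entry (26.7%) and 3 of 17 coagulation genes (17.6%), against 1173 of 27025 genes in all (4.34%). A match describes the letters only. Alb and Fgb fell while Afp rose: Fgb stood at 1196 and 401 CPM in BM 3W, against 9296 and 9204 CPM in FH (log2 -3.53 ± 0.63), and Afp at 793 and 259.5 CPM in BM 3W, against 1.91 and 2.22 CPM in FH (log2 7.99 ± 1.04).

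Nitrogen metabolism fell as well. Of 12 urea cycle and ammonia genes, 11 fell under both scalings and Glud1 did not pass (median -4.79), though by total counts it was called higher (log2 0.67, adjusted p = 0.0491). Of 24 amino acid breakdown genes, 23 fell under both scalings and Sdsl did not pass (median -6.64), though by total counts it too was called higher (log2 1.80, adjusted p = 0.0186). Cps1, which starts the urea cycle, stood at 72.5 and 9.07 CPM in BM 3W, against 13502 and 13421 CPM in FH (log2 -8.37 ± 1.06, adjusted p = 7.82e-05). Arg1, which releases urea, was at 92.9 and 99.5 CPM in BM 3W, against 2097 and 2300 CPM in FH (log2 -4.51 ± 0.34). For both genes each BM 3W value lay far below each FH value, and Arg1 was nearly equal in the BM 3W libraries while Cps1 was not. Gls2, the liver glutaminase, and Car5a, a mitochondrial carbonic anhydrase that supplies bicarbonate to Cps1, had log2 fold changes of -9.63 ± 1.04 and -10.44 ± 1.60. Glud1, glutamate dehydrogenase, stood at 1011 and 712 CPM in BM 3W, against 1297 and 1336 CPM in FH, and made up 71.2% of the summed CPM of the list in BM 3W.

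Among amino acid enzymes, Hpd of tyrosine breakdown stood at 10.7 and 0.599 CPM in BM 3W, against 3406 and 3410 CPM in FH (log2 -9.23 ± 1.21, adjusted p = 9.79e-05). Sds, which splits serine, was at 0.686 and 0.0599 CPM in BM 3W, against 270.4 and 258 CPM in FH (log2 -9.49 ± 1.40). Cbs, which makes cystathionine, showed the smallest fall among the called members (-3.48 ± 0.29), with 39.7 and 34.0 CPM in BM 3W, against 406 and 415 CPM in FH.

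Glucose enzymes changed by isoform only in part. Of 15 gluconeogenesis and glycogen genes, 14 fell and Pklr, the liver pyruvate kinase, did not pass (13 fell by total counts, median -3.57). Of 15 glycolysis genes, 8 rose, 1 fell and 6 did not pass (12 rose and 0 fell by total counts, median 1.34). G6pc, which releases free glucose, stood at 6.38 and 3.83 CPM in BM 3W, against 786 and 749 CPM in FH (log2 -7.23 ± 1.00, adjusted p = 0.000143). Pkm, the pyruvate kinase of most other tissues, stood at 519 and 541 CPM in BM 3W, against 3.98 and 4.35 CPM in FH (log2 6.99 ± 0.44, adjusted p = 3.37e-06). The hexokinases Hk1 (5.95 ± 0.64) and Hk2 (5.81 ± 0.66) and the platelet type phosphofructokinase Pfkp (6.06 ± 0.90) rose under every alternative run. Pfkl, the liver type phosphofructokinase, was also among the 8 genes that rose, so the rises were not limited to non-liver forms. Enzymes of the shared middle of the pathway were near their FH level under TMM: Eno1 was at 511 and 648 CPM in BM 3W, against 454 and 439 CPM in FH (log2 0.38 ± 0.39, called higher by total counts). Pfkfb3, an activator of glycolysis, was the 1 gene of the list that fell (-1.89 ± 0.49), and not by total counts.

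Bile acid, drug and transport genes fell almost throughout. All 18 bile acid genes tested fell (15 by total counts, median -5.01), 31 of 32 phase I drug genes fell under both scalings (median -6.15), and 23 of 25 phase II conjugation genes fell (19 by total counts, with 1 higher, median -4.07). Of 16 transporters of the sinusoidal membrane, 14 fell (13 by total counts, median -6.08). Cyp7a1, the rate-limiting enzyme of bile acid synthesis, stood at 1.10 and 0.0898 CPM in BM 3W, against 1110 and 1147 CPM in FH (log2 -10.91 ± 1.61, adjusted p = 0.000214). The bile salt pump Abcb11 and the uptake carrier Slc10a1 had log2 fold changes of -7.49 ± 0.99 and -7.84 ± 1.14. The conjugate pump Abcc2 was the least changed of the tested bile acid genes, at 219 and 302 CPM in BM 3W, against 1232 and 1214 CPM in FH (log2 -2.23 ± 0.49, not called by total counts).

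Cyp2e1, which oxidises ethanol, ranked 10th of all genes by FPKM in FH, above every other gene of its list. It stood at 74.4 and 4.19 CPM in BM 3W, against 19965 and 21058 CPM in FH (log2 -9.03 ± 1.56, adjusted p = 0.000600). Cyp2f2 stood at 0.343 and 1.05 CPM in BM 3W, against 2656 and 2605 CPM in FH (log2 -11.86 ± 1.02), and Cyp4a10, a PPAR-alpha target that hydroxylates fatty acids, at 0.172 and 0.0599 CPM in BM 3W, against 512 and 484 CPM in FH (log2 -12.03 ± 1.92). Cyp2b, Cyp2c, Cyp2d, Cyp3a, Ces, Ugt and Sult genes have close paralogs, so reads may be split among them, and values of single members are uncertain. Por, the electron donor shared by these P450 enzymes, fell to 72.9 and 76.1 CPM in BM 3W, against 1578 and 1538 CPM in FH (log2 -4.39 ± 0.30), with BM 3W libraries that were nearly equal. Cyp2b10, a gene inducible through CAR, did not pass at 0.274 and 1.20 CPM in BM 3W, against 1.91 and 1.35 CPM in FH, after 679 and 320.2 CPM in BM 3D.

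Among the transporters, Slco1a1, an organic anion carrier, stood at 0.274 and 0.270 CPM in BM 3W, against 1219 and 1194 CPM in FH (log2 -12.08 ± 1.00, adjusted p = 8.50e-06). Slc22a7, another organic anion carrier, had 0 counts in both BM 3W libraries, against 61.2 and 56.8 CPM in FH, at least 612-fold lower. The zinc and iron importer Slc39a14 was less changed, at 123 and 113 CPM in BM 3W, against 471 and 468 CPM in FH (log2 -1.99 ± 0.33).

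Fatty acid oxidation fell almost throughout, whereas most genes of lipid synthesis did not pass. Of 22 oxidation and ketogenesis genes, 21 fell (20 by total counts, with 1 higher, median -2.89). Of 20 lipid and cholesterol synthesis genes, 1 rose, 8 fell and 11 did not pass (6 rose and 4 fell by total counts, and 5 fell without either FH library, median -0.46). Eci1 and Eci2 are isomerases that let unsaturated fatty acids enter oxidation. Eci1 stood at 14.03 and 15.2 CPM in BM 3W, against 92.7 and 99.3 CPM in FH (log2 -2.72 ± 0.28), and Eci2 at 39.4 and 29.98 CPM in BM 3W, against 359 and 362 CPM in FH (log2 -3.38 ± 0.34). In both genes the groups did not overlap, and the BM 3W libraries lay close together. In synthesis, Dgat2, which makes triglyceride, fell (-4.57 ± 0.43). Scd1, a fatty acid desaturase, did not pass, at 6268 and 1370 CPM in BM 3W, against 4453 and 4580 CPM in FH: one BM 3W library lay above and the other below both FH libraries.

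Of 26 hepatocyte transcription factors, 1 rose, 20 fell and 5 did not pass (5 rose and 15 fell by total counts, median -2.69). Nr1i3, the nuclear receptor CAR, showed the largest fall, with 2.50 and 0.419 CPM in BM 3W, against 276 and 249.3 CPM in FH (log2 -7.50 ± 0.87, adjusted p = 4.86e-05). Ppara, the receptor that drives fatty acid oxidation, followed at log2 -5.64 ± 0.66, and Cebpa at log2 -3.36 ± 0.41. Onecut2, a factor shared by hepatocytes and bile duct cells, did not pass, at 187 and 219.8 CPM in BM 3W, against 236 and 221 CPM in FH.

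Hormone and iron genes fell in most cases: 12 of 18 fell, 2 rose and 4 did not pass (10 fell and 2 rose by total counts, median -3.47). Hamp, the iron hormone hepcidin, stood at 3.57 and 2.49 CPM in BM 3W, against 464 and 502 CPM in FH (log2 -7.32 ± 0.81). Igf1, the growth hormone target that circulates in blood, was at 58.6 and 74.8 CPM in BM 3W, against 1543 and 1533 CPM in FH (log2 -4.53 ± 0.85), and Igfbp2 had a log2 fold change of -8.10 ± 0.70. Bmp6, a signal that endothelial cells send to hepatocytes to set hepcidin, rose to 21.6 and 42.4 CPM in BM 3W, against 2.47 and 1.11 CPM in FH (log2 4.16 ± 1.07).

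Fetal and tumour markers rose in the same libraries. Of 11 tested, 10 rose and Igf2bp3 did not pass (11 rose by total counts). Their median was 7.99, or 5.60 with the 4 genes at 0 counts in FH placed at 3 counts per library. Cd24a, a surface protein of progenitor cells, stood at 186 and 229.6 CPM in BM 3W, against 0.398 and 0.871 CPM in FH (log2 8.34 ± 1.43). Gpc3, a proteoglycan of fetal liver and liver cancer, was at 21.7 and 2.37 CPM in BM 3W, against 0.159 and 0.0791 CPM in FH (log2 6.59 ± 1.16, 95.7-fold, counting interval 32.6 to 465). Igf2, a fetal growth factor, had 0 counts in FH and 11.7 and 2.19 CPM in BM 3W, at least 29.1-fold higher.

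YAP/TEAD target genes, the genes most often used to read YAP activity, rose almost throughout. Of 23 tested, 21 rose, Dock5 fell and Wwc1 did not pass (22 rose and 0 fell by total counts, median 4.28). Some of these genes also answer to other pathways, so the count describes the list only. Ankrd1, a muscle ankyrin repeat protein, stood at 236 and 192 CPM in BM 3W, against 0.477 and 0.317 CPM in FH (log2 9.05 ± 1.04). Cyr61, a secreted matrix protein, was at 256 and 279 CPM in BM 3W, against 14.9 and 12.7 CPM in FH (log2 4.28 ± 0.94). Amotl2, an angiomotin that binds YAP, was at 117 and 145 CPM in BM 3W, against 49.7 and 54.7 CPM in FH (log2 1.33 ± 0.20). In each of these genes both BM 3W libraries lay above both FH libraries, and the BM 3W libraries lay close together. Myof (8.36 ± 1.22), Ptpn14 (7.28 ± 0.86) and Arhgef17 (6.67 ± 0.41) also rose. Dock5 stood at 28.3 and 25.6 CPM in BM 3W, against 65.9 and 65.4 CPM in FH (log2 -1.28 ± 0.30, not called by total counts).

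Promoters of these 3 targets were picked because they hold the letters CATTCC, or GGAATG on the other strand, which TEAD factors bind. The letters are in capitals. Each run is the 150 bases before the annotated start in RefSeq (GRCm38.p6). Ankrd1 lies at chr19:36119845-36119994 on the minus strand, with the letters 123 bases before the start. Cyr61 lies at chr3:145649986-145650135 on the minus strand, with the letters 103 bases before the start. Amotl2 lies at chr9:102717654-102717803 on the plus strand, with the letters 65 bases before the start.
Ankrd1: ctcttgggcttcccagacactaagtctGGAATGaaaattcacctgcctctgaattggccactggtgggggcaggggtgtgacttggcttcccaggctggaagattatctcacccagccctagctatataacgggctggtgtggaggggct
Cyr61: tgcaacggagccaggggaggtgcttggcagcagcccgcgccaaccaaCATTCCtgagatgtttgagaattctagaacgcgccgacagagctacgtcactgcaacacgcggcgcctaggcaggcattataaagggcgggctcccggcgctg
Amotl2: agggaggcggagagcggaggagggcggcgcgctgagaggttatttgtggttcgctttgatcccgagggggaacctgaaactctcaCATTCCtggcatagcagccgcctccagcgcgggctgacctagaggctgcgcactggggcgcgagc
These letters stood in the window of 5 of 18 listed targets with an entry (27.8%), against 2389 of 27025 genes in all (8.84%). They also occur once in the Fgb run above, where they are left in lower case, and Fgb fell. Ctgf, another target of the list, had no entry.

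The actin cytoskeleton rose nearly as a whole. Of 32 genes, 30 rose, 0 fell and 2 did not pass (32 rose by total counts, median 4.14). The largest changes were those of muscle forms, among them smooth muscle actins and the filamin Flnc, whose values are given further below. Actg2, smooth muscle gamma actin, had 0 counts in FH and 80.1 and 145 CPM in BM 3W, at least 474-fold higher. Acta2, smooth muscle alpha actin, stood at 816 and 626 CPM in BM 3W, against 0 and 0.237 CPM in FH (log2 12.49 ± 0.84, adjusted p = 3.52e-06, 6008-fold, counting interval 2056 to 29134). Tagln, an actin-binding protein of contractile cells, was at 436 and 458 CPM in BM 3W, against 1.27 and 1.03 CPM in FH (log2 8.59 ± 0.35, adjusted p = 5.75e-07). Forms that every cell uses rose less: Actb stood at 1828 and 1848 CPM in BM 3W, against 364 and 368 CPM in FH (log2 2.33 ± 0.35), and Myh9, non-muscle myosin, had a log2 fold change of 2.49 ± 0.40. In FPKM, which corrects for length, Acta2 stood at 252 and 234 in BM 3W, against 0 and 0.0423 in FH, and Actb at 1392 and 1550 in BM 3W, against 115 and 118 in FH, so beta actin remained the more abundant of these actins in BM 3W.

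Of 21 integrin and focal adhesion genes, 19 rose and 2 did not pass (21 rose by total counts, median 3.40, or 2.98 with the 2 genes at 0 in FH at their bound). Itga2, a collagen receptor, stood at 41.0 and 56.5 CPM in BM 3W, against 0.0795 and 0.237 CPM in FH (log2 8.21 ± 1.19), and Itga3, a laminin receptor, at 218 and 218 CPM in BM 3W, against 6.998 and 8.39 CPM in FH (log2 4.82 ± 0.48). Itgb1, the beta chain shared by both, was at 978 and 695 CPM in BM 3W, against 355 and 357 CPM in FH (log2 1.23 ± 0.30). Cd44, a hyaluronan receptor, had a log2 fold change of 6.74 ± 1.16.

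**Figure D2:**
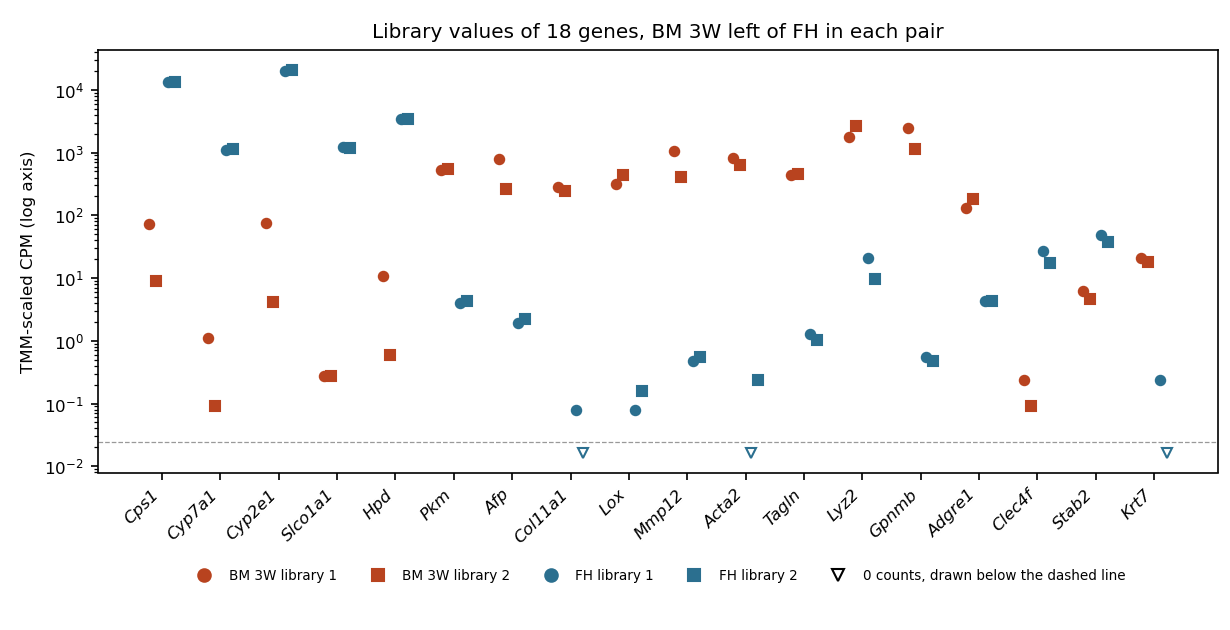
TMM-scaled CPM (log axis) of 18 genes in each of the 4 libraries, with BM 3W to the left of FH for each gene; circles are library 1 and squares library 2, and open triangles below the dashed line are libraries with 0 counts. Cps1 stood at 72.5 and 9.07 CPM in BM 3W, against 13502 and 13421 CPM in FH. The genes shown were picked from called genes with their values known, so the lack of overlap between the groups follows from that choice.

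Extracellular matrix genes rose in each of their groups. Of 17 fibrillar and associated collagens, 14 rose, 1 fell and 2 did not pass (15 rose and 1 fell by total counts, median 7.87). Of 18 basement membrane genes, 16 rose, Lama3 fell and Lamb3 did not pass (median 5.17). Of 26 matrix glycoproteins, 22 rose, Vtn fell and 3 did not pass (25 rose and 1 fell by total counts, median 7.12, or 6.18 with the 2 genes at 0 in FH at their bound). Many of these genes are made by stellate cells in liver, and their values are given beside the stellate markers below.

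Col11a1, a fibrillar collagen, stood at 285 and 242 CPM in BM 3W, against 0.0795 and 0 CPM in FH (log2 12.49 ± 0.63, adjusted p = 1.25e-06, 6612-fold, counting interval 1187 to 261179). Col4a1, of basement membrane, was at 1659 and 1600 CPM in BM 3W, against 26.1 and 25.01 CPM in FH (log2 6.00 ± 0.52). Thbs1, thrombospondin 1, was at 673 and 1205 CPM in BM 3W, against 0.318 and 0.317 CPM in FH (log2 11.50 ± 0.95). The groups did not overlap for any of these. Col18a1 and Vtn, the plasma protein vitronectin, both known as hepatocyte products, fell. Col18a1 stood at 271 and 208 CPM in BM 3W, against 1401 and 1421 CPM in FH (log2 -2.56 ± 0.48), and Vtn at 438 and 194 CPM in BM 3W, against 3457 and 3469 CPM in FH (log2 -3.46 ± 0.52). Col18a1 made up 93.6% of the summed collagen level in FH, so in FH this list was read mostly through 1 gene. Fn1, fibronectin, which hepatocytes also secrete to plasma, was abundant in both groups, at 6978 and 7192 CPM in BM 3W, against 4774 and 4653 CPM in FH (log2 0.59 ± 0.64, adjusted p = 0.451), and was called higher by total counts.

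Enzymes that process matrix rose with it. Of 20 crosslinking and processing genes, 17 rose, P4hb fell and 2 did not pass (19 rose and 0 fell by total counts, median 6.02, or 5.69 with the 1 gene at 0 in FH at its bound). Of 23 proteases and inhibitors, 18 rose, 2 fell and 3 did not pass (20 rose and 1 fell by total counts, median 7.30, or 6.49 with the 3 genes at 0 in FH at their bound). Lox, which crosslinks collagen, stood at 318 and 434 CPM in BM 3W, against 0.0795 and 0.158 CPM in FH (log2 11.55 ± 1.17, adjusted p = 2.26e-05, 3194-fold, counting interval 1093 to 15490.0). Serpinh1, the collagen chaperone, was at 300 and 386 CPM in BM 3W, against 2.55 and 1.11 CPM in FH (log2 7.55 ± 0.67). P4hb, a subunit of prolyl hydroxylase that also folds other secreted proteins, was at 682 and 633 CPM in BM 3W, against 1885 and 1887 CPM in FH (log2 -1.52 ± 0.36, not called by total counts). Mmp12, the macrophage elastase, stood at 1042 and 411 CPM in BM 3W, against 0.477 and 0.554 CPM in FH (log2 10.44 ± 1.14). Timp1, an inhibitor of these proteases, had 0 counts in FH and 27.9 and 61.7 CPM in BM 3W, at least 188-fold higher. Mmp15, a membrane-bound protease, fell (-2.31 ± 0.38).

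Ligands and targets of TGF-beta signalling rose in most cases: of 23 genes, 18 rose, Nrep fell and 4 did not pass (20 rose and 1 fell by total counts, median 2.61). Among ligands, Tgfb1 stood at 59.3 and 46.3 CPM in BM 3W, against 2.78 and 1.43 CPM in FH (log2 4.65 ± 0.72), and Tgfb3 at 51.4 and 63.0 CPM in BM 3W, against 0.159 and 0 CPM in FH (log2 9.38 ± 0.73, 726-fold, counting interval 201 to 5998). The receptors Tgfbr1 (1.35 ± 0.21) and Tgfbr2 (1.34 ± 0.18) also rose. Smad7, an inhibitor that the pathway induces, rose by log2 3.03 ± 0.42, and Fst, which traps activins, by log2 5.68 ± 1.05.

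Some markers of epithelial state and some of mesenchymal state rose, but not all. Of 22 genes, 15 rose, 1 fell and 6 did not pass (21 rose and 0 fell by total counts, median 2.95, or 2.48 with the 2 genes at 0 in FH at their bound). Among the 6 were the transcription factors Snai2, Twist1 and Zeb1 and the junction genes Tjp1 and Ocln. Vim, vimentin, stood at 881 and 1009 CPM in BM 3W, against 3.26 and 2.93 CPM in FH (log2 8.25 ± 0.74). Snai1, a repressor of epithelial genes, had 0 counts in FH and 11.04 and 9.46 CPM in BM 3W, at least 43.1-fold higher. The epithelial cadherin Cdh1 also rose, to 235 and 181 CPM in BM 3W, against 93.4 and 92.4 CPM in FH (log2 1.16 ± 0.25), as did the simple epithelial keratins Krt8 (1.70 ± 0.42) and Krt18 (2.18 ± 0.47). Cdh2, the other hepatocyte cadherin, did not pass at 222 and 136 CPM in BM 3W, against 237 and 251 CPM in FH. Cldn1, a tight junction gene, was the 1 that fell (-1.85 ± 0.54, held in 10 of 14 alternatives).

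Cell cycle genes were higher after 3 weeks. Of 27 replication and division genes, 22 rose and 5 did not pass (25 rose by total counts, median 3.70). Mki67, a marker of dividing cells, stood at 108 and 44.3 CPM in BM 3W, against 1.35 and 1.58 CPM in FH (log2 5.70 ± 1.16). Ccnd2, a G1 cyclin, was at 283 and 288 CPM in BM 3W, against 1.83 and 3.48 CPM in FH (log2 6.74 ± 0.70). Of 17 p53 and senescence genes, 16 rose and Gdf15 did not pass (17 rose by total counts, median 3.15). Cdkn1a, the cell cycle inhibitor p21, stood at 153 and 202 CPM in BM 3W, against 1.75 and 1.504 CPM in FH (log2 6.77 ± 0.51). Cdkn2a, another inhibitor, had 0 counts in FH and 3.12 and 8.66 CPM in BM 3W, at least 24.7-fold higher. Division genes and inhibitors of division thus rose in the same libraries, which mix all cells of a culture.

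NRF2 targets, the antioxidant genes, split. Of 18, 8 rose, 1 fell and 9 did not pass (13 rose and 0 fell by total counts, median 0.87). Slc7a11, which imports cystine, stood at 34.6 and 236 CPM in BM 3W, against 0.0795 and 0.396 CPM in FH (log2 9.12 ± 1.80), and Abcc4, an export pump, at 152 and 380.3 CPM in BM 3W, against 1.67 and 0.871 CPM in FH (log2 7.71 ± 1.29). Hmox1, heme oxygenase, rose (3.44 ± 0.48). Gstm3, a glutathione transferase, fell (-1.63 ± 0.62, held in 6 of 14 alternatives).

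Of 22 cytokine and chemokine genes tested, 16 rose and 6 did not pass (18 rose by total counts, median 4.18, or 3.38 with the 4 genes at 0 in FH at their bound). Without FH library 1, or without FH library 2, the rises numbered 10. Ccl2, which attracts monocytes, stood at 98.4 and 177 CPM in BM 3W, against 0.239 and 0.237 CPM in FH (log2 9.14 ± 1.11). Csf1, the growth factor of macrophages, was at 152 and 137 CPM in BM 3W, against 10.9 and 8.78 CPM in FH (log2 3.88 ± 0.52). Cxcl5 varied most, at 19.8 and 225 CPM in BM 3W, against 0.159 and 0.396 CPM in FH (log2 8.75 ± 1.77).

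Growth factor and receptor genes moved both ways: 20 of 30 tested members rose, 4 fell and 6 did not pass (24 rose and 3 fell by total counts, median 3.47, or 2.86 with the 3 genes at 0 in FH at their bound). The epidermal growth factor receptor Egfr fell to 155 and 124 CPM in BM 3W, against 2091 and 2044 CPM in FH (log2 -3.89 ± 0.59). Its ligands rose: Hbegf stood at 18.5 and 18.9 CPM in BM 3W, against 0.159 and 0.158 CPM in FH (log2 6.82 ± 0.83), and Ereg had 0 counts in FH and 16.4 and 14.8 CPM in BM 3W, at least 65.6-fold higher. Met, the receptor of hepatocyte growth factor, fell (-1.91 ± 0.33, not called by total counts), while its ligand Hgf, which stellate cells make in liver, rose to 51.0 and 14.1 CPM in BM 3W, against 4.53 and 4.04 CPM in FH (log2 2.92 ± 0.64). Fgf1 (-4.70 ± 0.52) and the pericentral marker Lgr5 (-2.98 ± 0.52) fell. The Notch ligand Jag1 (5.08 ± 0.60) and the receptor Notch3 (8.39 ± 1.03, 344-fold, counting interval 118 to 1670), which marks mural cells, rose.

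Markers of non-parenchymal cells differed by cell type. Across 12 lists of such markers, most tested members of the stellate, smooth muscle, macrophage and bile duct lists rose, endothelial members moved both ways, and neutrophil and lymphocyte members were near 0, with the counts below. In a bulk library fewer cells of a type and less RNA per cell cannot be told apart, and the part of such cells in the matrix, cytoskeleton and cytokine results was not tested.

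All 18 activated stellate and myofibroblast markers rose under both scalings (median 8.96, or 8.12 with the 1 gene at 0 in FH at its bound). Their summed level was 16535 and 21331 CPM in BM 3W, against 102 and 86.3 CPM in FH. All 18 also stand in another list here, mostly matrix or actin genes, so the count is not separate from those above. Defining members were Acta2 and the receptors Pdgfrb, at 188 and 100.3 CPM in BM 3W, against 2.39 and 1.43 CPM in FH (log2 6.24 ± 0.50), and Pdgfra, at 78.9 and 21.8 CPM in BM 3W, against 1.75 and 2.93 CPM in FH (log2 4.42 ± 0.70), beside collagen genes. None of the 6 defining members was at 0 in either group. By FPKM, Col3a1 ranked 24th of all genes in BM 3W, at 791 and 1114 FPKM, against 0.724 and 0.512 FPKM in FH.

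Of 13 quiescent stellate markers tested, 9 rose, 2 fell and 2 did not pass (11 rose and 2 fell by total counts, median 2.67). The list summed to 1125 and 758 CPM in BM 3W, against 527 and 502 CPM in FH, but 73.4% of the FH sum was Tmem56, one of the members that fell, with 35.1 and 18.7 CPM in BM 3W, against 379 and 377 CPM in FH. Reln, which marks stellate cells among liver cells, stood at 505 and 166 CPM in BM 3W, against 37.9 and 30.4 CPM in FH (log2 3.30 ± 0.82). Des, desmin, was at 99.6 and 207 CPM in BM 3W, against 0.557 and 0 CPM in FH (log2 9.08 ± 0.83), and Hand2, a stellate transcription factor, at 30.9 and 13.99 CPM in BM 3W, against 1.19 and 1.11 CPM in FH (log2 4.28 ± 0.70). Lrat, which stores vitamin A as esters, was at 40.6 and 21.2 CPM in BM 3W, against 6.601 and 6.02 CPM in FH (log2 2.29 ± 0.91), and its call held in 8 of 14 alternatives. Ngfr, the remaining defining member, had a log2 fold change of 3.73 ± 1.01 (held in 9 of 12 alternatives). None of the 5 defining members was at 0 in either group.

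Of 12 smooth muscle and pericyte markers tested, 11 rose and 1 did not pass (12 rose by total counts, median 7.67, or 6.21 with the 4 genes at 0 in FH at their bound). They summed to 767 and 806 CPM in BM 3W, against 16.2 and 13.5 CPM in FH. Myh11, smooth muscle myosin, stood at 269.5 and 178 CPM in BM 3W, against 0.159 and 0.158 CPM in FH (log2 10.41 ± 0.79). Cnn1, calponin, had 0 counts in FH and 47.4 and 74.7 CPM in BM 3W, at least 256-fold higher. Of 7 defining members Higd1b was at 0 in BM 3W, and Cnn1, Actg2 and Higd1b were at 0 in FH. Smtn (4.99 ± 0.53), Mustn1 (4.09 ± 0.48) and Kcnj8 (4.02 ± 1.00) completed the defining set.

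Of 11 portal fibroblast and mesothelial markers tested of 17 in the table, 9 rose and 2 did not pass (11 rose by total counts, median 5.23, or 4.27 with the 1 gene at 0 in FH at its bound), and without either FH library 5 rose. Their sum was 445 and 773 CPM in BM 3W, against 5.01 and 3.80 CPM in FH, of which Fbln2 made up 86.3% in BM 3W. Msln, mesothelin, stood at 20.4 and 10.3 CPM in BM 3W, against 0 and 0.0791 CPM in FH (log2 8.38 ± 1.25, 378-fold, counting interval 67.7 to 14948), and Wt1, a mesothelial transcription factor, had 0 counts in FH and 4.22 and 3.09 CPM in BM 3W, at least 15.3-fold higher. The other defining members Upk3b, Upk1b and Lrrn4 were too low to test, with 3.81 and 0.270, 3.498 and 0.150 and 1.44 and 0.240 CPM in BM 3W, and Eln and Entpd2 did not pass. Upk1b and Wt1 were at 0 in FH, and no defining member was at 0 in BM 3W.

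Macrophage markers rose while markers of resident Kupffer cells parted. Of 13 monocyte and macrophage markers tested, 12 rose and Aif1 did not pass (13 rose by total counts, median 5.43), and they summed to 5740 and 4972 CPM in BM 3W, against 73.0 and 45.9 CPM in FH. Lyz2, lysozyme, stood at 1747 and 2679 CPM in BM 3W, against 20.6 and 9.66 CPM in FH (log2 7.19 ± 0.87, adjusted p = 6.25e-05), and ranked 8th by FPKM in BM 3W. Gpnmb, a glycoprotein of lipid-laden macrophages that other cells also make, was at 2490 and 1149 CPM in BM 3W, against 0.557 and 0.475 CPM in FH (log2 11.77 ± 0.72, adjusted p = 3.01e-06). Trem2, a macrophage lipid receptor, had 0 counts in FH and 47.5 and 41.7 CPM in BM 3W, at least 187-fold higher. The defining members Cd68 (6.00 ± 0.66), Itgam (7.35 ± 0.49), Tyrobp (5.33 ± 0.46), Fcer1g (4.59 ± 0.46) and Ptprc (3.60 ± 0.44), the leukocyte antigen CD45, all rose, and none of the 6 was at 0 in either group. Ccr2, Cx3cr1 and Ly6c2, which mark monocytes, were too low to test, at 0.0343 and 0.270, 0.274 and 0.839 and 0 and 0 CPM in BM 3W, against 0.318 and 0.475, 0.0795 and 0 and 0.0795 and 0.0791 CPM in FH.

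Of 14 Kupffer cell markers, 9 rose, 2 fell and 3 did not pass (11 rose and 2 fell by total counts, median 3.44), with sums of 1258 and 1320 CPM in BM 3W, against 313 and 272 CPM in FH. Slc40a1, an iron exporter that hepatocytes also express, held 58.7% of the FH sum and did not pass. Clec4f, a lectin that among liver cells marks resident Kupffer cells, stood at 0.240 and 0.0898 CPM in BM 3W, against 27.3 and 17.1 CPM in FH (log2 -7.05 ± 0.76, adjusted p = 4.99e-05), and Timd4, another resident marker, at 0.137 and 0 CPM in BM 3W, against 2.62 and 2.30 CPM in FH (log2 -5.10 ± 1.17). Adgre1, the macrophage antigen F4/80, was at 133 and 184 CPM in BM 3W, against 4.29 and 4.27 CPM in FH (log2 5.20 ± 0.72), and Vsig4, a complement receptor, at 173 and 87.8 CPM in BM 3W, against 11.4 and 9.34 CPM in FH (log2 3.65 ± 0.57). Marco, a scavenger receptor, rose (5.05 ± 1.04), as did Cd5l (1.80 ± 0.68, held in 10 of 14 alternatives). So of 6 defining members 4 rose and 2 fell, and both groups had counts of each.

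**Figure D3:**
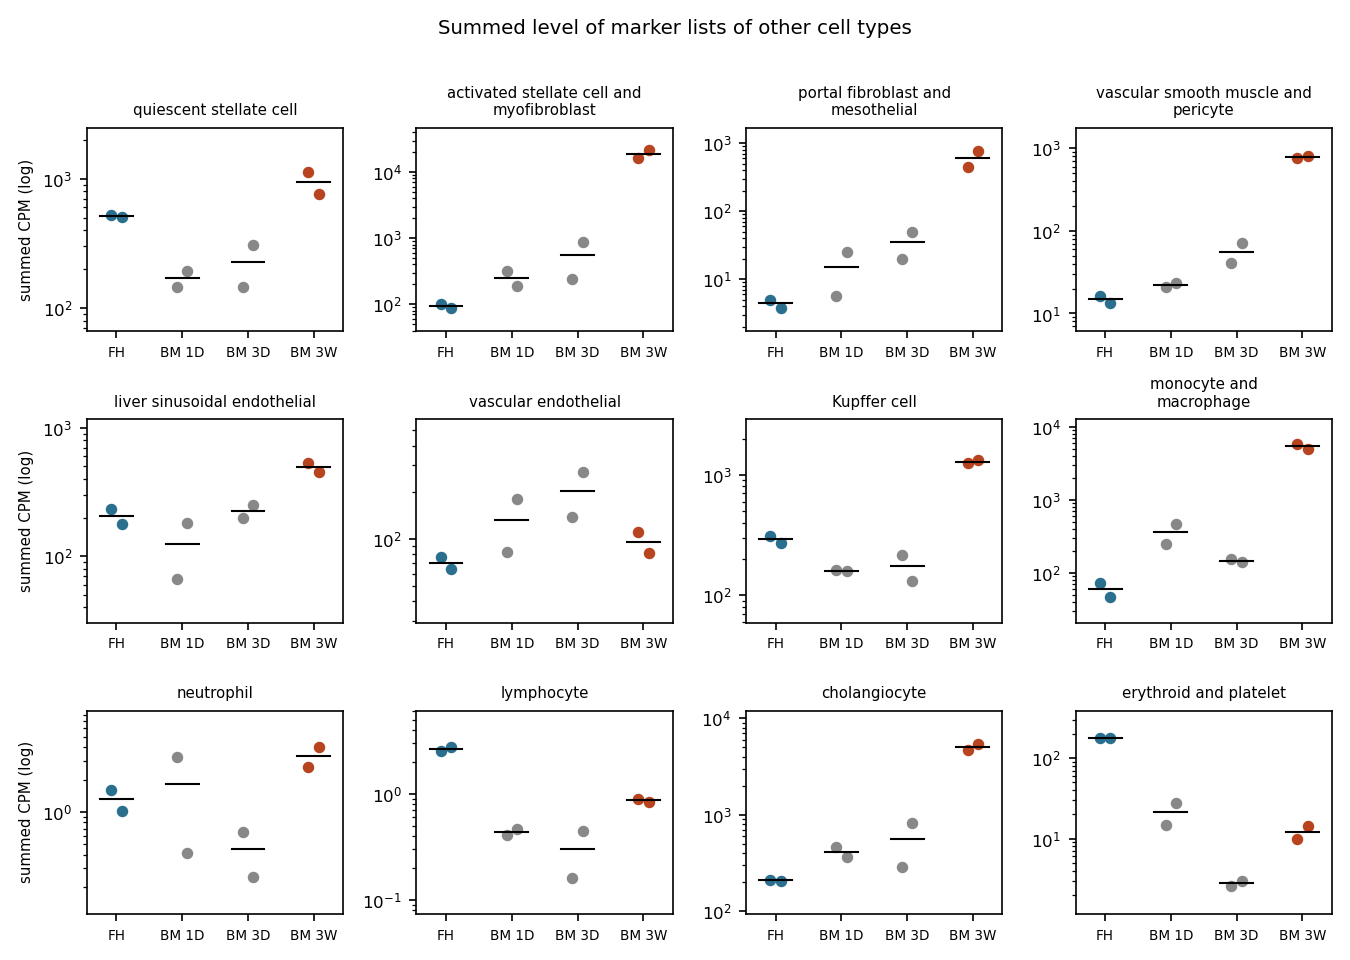
Summed TMM-scaled CPM (log axes, with a scale of its own in each panel) of 12 marker lists of other cell types in FH, BM 1D, BM 3D and BM 3W libraries; points are libraries and bars the mean of 2. Activated stellate markers summed to 16535 and 21331 CPM in BM 3W, against 102 and 86.3 CPM in FH, and monocyte and macrophage markers to 5740 and 4972 CPM in BM 3W, against 73.0 and 45.9 CPM in FH, with lower sums in BM 1D and BM 3D than in BM 3W for both lists.

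Endothelial markers did not rise as a group. Of 13 sinusoidal endothelial markers tested, 3 rose, 6 fell and 4 did not pass (5 rose and 4 fell by total counts, median -1.99), and of 14 vascular endothelial markers 1 rose, 5 fell and 8 did not pass (2 rose and 2 fell by total counts, median -0.92). Without either BM 3W library, 3 sinusoidal and 3 vascular markers fell, without FH library 1, 3 and 2, and without FH library 2, 3 vascular markers. Clec4g, a sinusoidal lectin, stood at 0.206 and 0 CPM in BM 3W, against 12.3 and 8.55 CPM in FH (log2 -6.64 ± 1.46), and Dnase1l3, a nuclease of sinusoidal cells, at 0.0343 and 0.0300 CPM in BM 3W, against 21.6 and 15.51 CPM in FH (log2 -8.92 ± 1.79, and FH over BM 3W 579-fold, counting interval 159.5 to 4798). Stab2, a hyaluronan scavenger receptor, was at 6.14 and 4.61 CPM in BM 3W, against 48.0 and 37.8 CPM in FH (log2 -3.00 ± 1.11), and its call held in 7 of 14 alternatives. Of the other defining sinusoidal genes Oit3 (-2.41 ± 0.91, held in 7 of 14 alternatives) and Gpr182 (-4.82 ± 1.47, held in 11 of 14) fell, and Lyve1 and Fcgr2b did not pass. The sinusoidal sum was 530 and 452 CPM in BM 3W, against 232 and 180 CPM in FH, and rested in BM 3W on Stab1 and Mrc1, which macrophages share, with log2 fold changes of 4.03 ± 0.82 and 2.70 ± 0.89.

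Among vascular markers, Pecam1, the endothelial antigen CD31, stood at 0.240 and 0.928 CPM in BM 3W, against 7.16 and 6.17 CPM in FH (log2 -3.48 ± 1.20), and its call held in 7 of 14 alternatives. Tek, the angiopoietin receptor, fell (-4.96 ± 1.20), as did Kdr (-3.55 ± 1.10) and Tie1 (-2.89 ± 1.06), the last pair not by total counts. Cdh5 and Vwf did not pass. The list summed to 112 and 81.5 CPM in BM 3W, against 76.5 and 64.3 CPM in FH, of which Eng, shared with mesenchymal cells, was 79.2% in BM 3W. No defining endothelial member was at 0 in either group.

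Bile duct markers rose in part. Among 20 that could be tested of 23 in the table, 16 rose, 2 fell and 2 did not pass (18 rose and 1 fell by total counts, median 5.25, or 4.48 with the 3 genes at 0 in FH at their bound). Their sum was 4693 and 5470 CPM in BM 3W, against 212 and 206 CPM in FH, with Spp1 at 92.3% of it in BM 3W. Krt7, a duct keratin, stood at 21.0 and 18.03 CPM in BM 3W, against 0.239 and 0 CPM in FH (log2 7.28 ± 1.11, 163-fold, counting interval 55.7 to 793), Krt19 at 21.5 and 16.9 CPM in BM 3W, against 0.0795 and 0 CPM in FH (log2 8.71 ± 2.01, 480-fold, counting interval 86.0 to 18976), and Sox9, a duct and progenitor factor, at 48.6 and 57.1 CPM in BM 3W, against 3.66 and 3.01 CPM in FH (log2 3.99 ± 0.63). Epcam was near its floor, at 1.89 and 2.04 CPM in BM 3W, against 0.477 and 0.0791 CPM in FH (log2 2.79 ± 0.83). Cftr and Sctr, receptors and channels of mature duct cells, were too low to test, with 0.377 and 0.300 and 0.274 and 0.719 CPM in BM 3W, and both were at 0 in FH with Ggt1. Aqp1, a water channel of ducts and endothelium, fell to 0.514 and 0.509 CPM in BM 3W, against 25.5 and 21.5 CPM in FH (log2 -5.50 ± 1.45). Krt7, Krt19 and Sox9 are known to appear in hepatocytes in culture as well as in ducts.

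Markers of blood cells were low. Neutrophil markers summed to 2.64 and 4.01 CPM in BM 3W, against 1.59 and 1.03 CPM in FH, with 1 of 8 tested higher, 2 lower and 5 not passing (2 higher and 1 lower by total counts). Of the 2 lower, 0 were called without BM 3W library 2 and 1 without each other library. Of 7 defining neutrophil genes S100a9, Ly6g, Retnlg and Cxcr2 were at 0 in BM 3W, and Ly6g, Retnlg, Mmp8 and Cxcr2 in FH. Lymphocyte markers summed to 0.892 and 0.839 CPM in BM 3W, against 2.54 and 2.77 CPM in FH, and 1 of 16, Cd4, could be tested and did not pass. Of 11 defining lymphocyte genes, 6 were at 0 in BM 3W and 5 in FH, with Cd3d, Cd3g and Cd8a at 0 in all 4 libraries. The erythroid and platelet list summed to 9.84 and 14.6 CPM in BM 3W, against 178 CPM in each FH library, with 1 of 6 tested higher, 3 lower and 2 not passing (3 and 3 by total counts). Alas2, the heme enzyme of red cells, made up 95.3% of the FH sum, at 0.240 and 0.150 CPM in BM 3W, against 169 and 170.1 CPM in FH (log2 -9.73 ± 0.92), whereas of the 8 defining genes the 4 globin genes were at 0 in BM 3W, and Ppbp was among those at 0 in FH. Pf4, a chemokine of platelets and macrophages, rose (7.72 ± 1.21, 248-fold, counting interval 44.3 to 9790).

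Some genes had counts in 1 group alone. In 56 genes FH had 0 counts and both BM 3W libraries at least 10 CPM. Among the largest rises, beside Actg2, were Flnc, a muscle filamin, at 75.1 and 146 CPM in BM 3W and at least 464-fold higher, Cemip, a hyaluronan-degrading protein, at 24.6 and 177 CPM in BM 3W and at least 423-fold higher, and Nrg1, a ligand of ErbB receptors, at 38.3 and 51.4 CPM in BM 3W and at least 188-fold higher. Tspan8, a tetraspanin of epithelia, stood at 47.9 and 50.5 CPM in BM 3W and was at least 207-fold higher. In 5 genes BM 3W had 0 counts and both FH libraries at least 10 CPM: Mup2, Mup8, Mup10, Slc22a7 and Slc22a28. Major urinary proteins (Mup) made up 9 of the 15 largest falls, but their genes on chromosome 4 are near-identical copies, so the values of single members are uncertain. Mup7 stood at 0 and 5.03 CPM in BM 3W, against 17027 and 15714 CPM in FH. Outside this family, Upp2, a uridine phosphorylase, stood at 0.240 and 0.180 CPM in BM 3W, against 2272 and 2231 CPM in FH (log2 -13.36 ± 1.21), and Hsd3b5, a steroid dehydrogenase of male mouse liver, at 0.0343 and 0.0599 CPM in BM 3W, against 411 and 422 CPM in FH (log2 -12.91 ± 0.69, adjusted p = 1.70e-06, and FH over BM 3W 8689-fold, counting interval 2972 to 42139).

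The BM 3D libraries placed these changes in time. BM 3W was compared with BM 3D in the same fit, so both comparisons share the BM 3W libraries. Of 14100 genes, 3447 were called (24.4%), 1906 higher in BM 3W (13.5%) and 1541 lower (10.9%). By total counts 2540 were higher (18.0%) and 704 lower (4.99%). Leaving out 1 library at a time gave between 1664 calls, without BM 3W library 2, and 2480, with 2099 without BM 3W library 1 and 2198 without BM 3D library 1.

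Most members of the matrix, stellate and macrophage lists were called over this interval. All 18 activated stellate markers were higher in BM 3W than in BM 3D (median 5.19), as were all 13 monocyte and macrophage markers tested (median 5.14), 14 of 17 collagens (15 by total counts, median 5.23), 22 of 26 matrix glycoproteins (median 4.70) and 9 of 14 Kupffer markers, with 1 lower (median 4.74). Col11a1 stood at 285 and 242 CPM in BM 3W, against 0.0405 and 0 CPM in BM 3D (edgeR quasi-likelihood adjusted p = 5.05e-06; the fitted fold rests on 1 count in BM 3D and is not given). Lyz2 was at 1747 and 2679 CPM in BM 3W, against 25.9 and 3.79 CPM in BM 3D (log2 7.21 ± 0.87, adjusted p = 0.000314). For both genes the BM 3D libraries lay below both BM 3W libraries.

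Fewer members of some other lists were called. Of 23 YAP/TEAD targets, 5 were higher and 2 lower in BM 3W than in BM 3D (8 higher and 1 lower by total counts, median 0.87), and of 17 p53 targets 3 were higher (4 by total counts, median 0.27). Over all genes tested, 13.5% were higher and 10.9% lower (18.0 and 4.99% by total counts), and no list was tested against these shares. Of 27 replication genes, 2 were higher and 1 lower under both scalings (median -0.73). The BM 3D libraries stood far apart in this list, which summed to 1119 and 915 CPM in BM 3W, against 1325 and 322 CPM in BM 3D, so 1 BM 3D library lay above and the other below both BM 3W libraries. Over all gene counts the BM 3D libraries also differed more than the BM 3W libraries, with a chi-square over degrees of freedom of 178.3 in BM 3D. Ankrd1 stood at 236 and 192 CPM in BM 3W, against 105 and 33.7 CPM in BM 3D. Part of the hepatocyte lists was lower again: 16 of 32 phase I genes (14 by total counts, median -2.69), 16 of 24 amino acid genes (15 by total counts, with 1 higher, median -2.56) and 8 of 20 coagulation genes (5 by total counts, median -1.51) were lower in BM 3W than in BM 3D. Outside these lists, Cps1 of the urea cycle stood at 72.5 and 9.07 CPM in BM 3W, against 1687 and 3783 CPM in BM 3D. Cyp7a1 of the bile acid list was low in both groups, which overlapped, at 1.10 and 0.0898 CPM in BM 3W, against 2.63 and 0.148 CPM in BM 3D. Whether the lists differ from each other in their change was not tested.

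The BM 3W libraries differed from each other in many hepatocyte genes, secreted and not. The median log2 ratio of library 1 over library 2 was 2.17 for coagulation genes, 2.09 for plasma carriers and 1.93 for apolipoproteins, and all 20, 20 and 16 members of these lists were higher in library 1. Among lists of metabolism it was 1.26 for amino acid breakdown (22 of 24 higher in library 1), 1.20 for gluconeogenesis and glycogen (14 of 15) and 1.12 for phase I drug genes (25 of 32). It was smaller for bile acid genes (0.83, 14 of 18), lipid and cholesterol synthesis (0.58, 15 of 20) and urea cycle genes (0.43, 10 of 12). For hepatocyte transcription factors it was 0.41 (17 of 26), and for fatty acid oxidation 0.40 (19 of 22). Sinusoidal transporters (0.31, 10 of 16) and phase II genes (0.10, 14 of 25) differed least among these lists. It was 1.46 for fetal markers and 0.59 for replication genes, of which 25 of 27 were higher in library 1. The ratio lay between -0.32 and 0.01 for fibrillar collagens, actin genes, activated stellate markers and matrix glycoproteins. It was 0.92 for quiescent stellate markers (11 of 13 tested higher in library 1) and -0.46 for matrix proteases and inhibitors. NRF2 targets went the other way, at -0.99, with 1 of 18 higher in library 1. With 2 libraries these are single differences, given without a test, and what set the libraries apart was not tested.

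**Figure D4:**
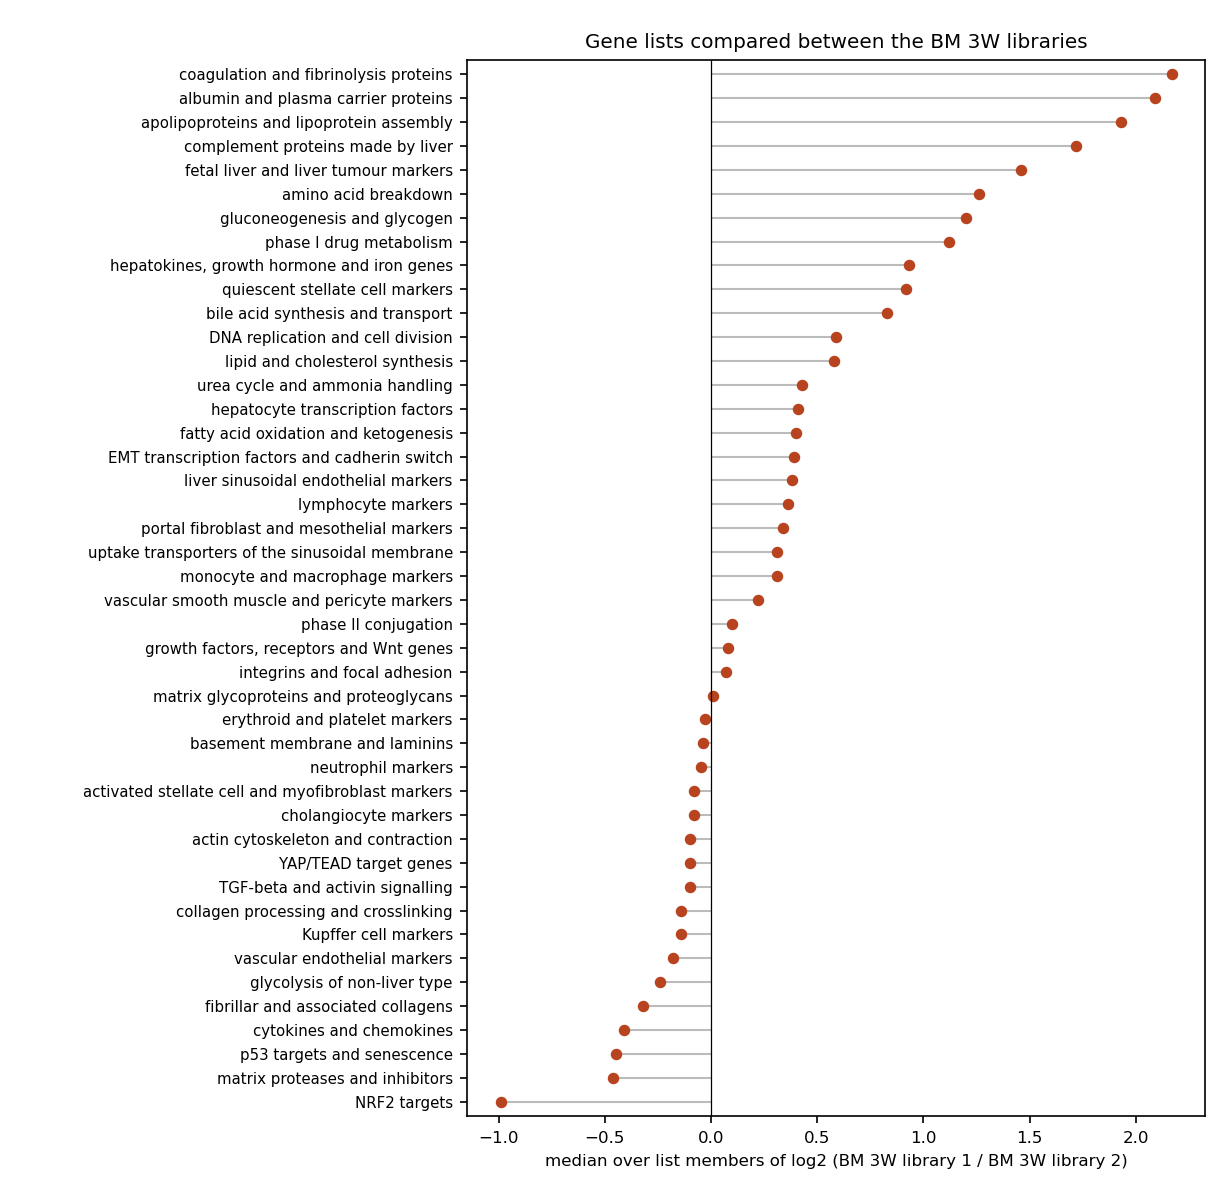
Median over list members of the log2 ratio of BM 3W library 1 over BM 3W library 2, after adding 0.5 CPM to each, for 44 lists ordered by value. Coagulation genes lie highest at 2.17 and NRF2 targets lowest at -0.99, while activated stellate markers (-0.08) and actin genes (-0.10) lie near 0.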

How the data were processed

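RNA of 14 mouse liver cell libraries in 7 groups of 2 was made into strand-marked paired-end libraries, per the labels' protocols. The authors deposited raw counts per gene and FPKM values for 21878 genes, of which 4326 are at 0 in all libraries. The submitters' processing notes name Trimmomatic, HISAT2, Cufflinks, HTSeq, DESeq and the build GRCm38.p6, without versions. No source used here gives the strand setting of the counting, so overlapping and antisense genes are uncertain.

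Groups come from the sample titles. Genes that passed edgeR's expression filter (14100) were scaled by TMM and fitted in 1 quasi-likelihood model over all 14 libraries, so that the groups share 1 estimate of spread, with BM 3W against FH and against BM 3D as contrasts and Benjamini-Hochberg adjustment over all genes tested. CPM values come from the counts. The lists (44, holding 816 distinct genes matched by symbol) were described by counts and medians, with no list test. A few members that the lists count are not reported here by name. Members and lists were chosen with earlier results of these data known. Within a list the text names called members with small p whose calls held, defining markers of other cell types and members that moved against their list, and outside the lists it draws on the 15 largest rises and falls with at least 10 CPM and no overlap between groups. Members named for other reasons (among them Fn1, Eno1, Afp and Egfr) were chosen after their values were seen. Ranks by level use the deposited FPKM. Alternatives were DESeq2 size factors, total counts, leaving out the 20 most abundant genes, no filter, the DESeq2 Wald test, limma on log2(FPKM + 1) and log2(FPKM + 0.1) for genes with a mean of at least 0.5 FPKM, only the 4 libraries compared, a replicate block, an absolute log2 fold change of at least 1, and leaving out each library. The fits were tested on simulated data in which few genes changed and every gene had the same spread. That test therefore does not cover the broad change, the scaling shift or the uneven replicates seen here. Versions were R 4.3.3, edgeR 4.0.16, limma 3.58.1, DESeq2 1.42.0, Python 3.11.15, pandas 2.3.3, numpy 2.4.6, scipy 1.17.1 and matplotlib 3.10.9. Intervals and floors cover counting error only.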

Additional observations from a re-analysis of the deposited data

How the results depend on the processing

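With 2 libraries a group, calls moved with scaling and with single libraries. Against FH, 8328 genes were called, and 5932 to 6979 when 1 library was left out (3248 to 3899 higher, 2684 to 3080 lower). Higher and lower calls were 9281 and 1364 by total counts, 7606 and 1341 with limma on log2(FPKM + 1) and 7646 and 1335 with log2(FPKM + 0.1), all scaled to totals. Against BM 3D, leaving out 1 library gave 1664 to 2480 calls (1142 to 1332 higher, 522 to 1148 lower), against 3447 with all (1906 higher, 1541 lower), and lower calls were 704 by total counts, 701 and 682 with limma at these pseudocounts, 623 with the 4 libraries alone and 1010 with an absolute log2 fold change of at least 1. The other planned settings gave counts within 1.5 times.

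Replicate numbers did not pair the groups compared: the differences between libraries 1 and 2 correlated across genes at 0.0119 for FH with BM 3W and 0.0641 for BM 3D with BM 3W. Other groups of the fit were correlated in part, at 0.461 for BM 1D with BM 3D, 0.311 for BM 3W Yap-/- with BM 3W and 0.136 for BM 3W Yap-/- with BM 3D. With the replicate number as a block, 8658 genes were called against FH (4743 higher, 3915 lower) and 3744 against BM 3D (2015 higher, 1729 lower).

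Of 175 named genes that were called, 149 kept call and direction under each alternative that could be run. Many of them were named because their calls held, so this share follows in part from that choice and does not describe genes at large. In 7 of 44 lists a count moved by over 1.5 times. Signs changed in Dock5 (0.01 by total counts, 0.03 and 0.04 with limma at pseudocounts of 1 and 0.1) and in genes that had not passed. By total counts and with limma at these pseudocounts, Cdh2 gave 0.83, 0.84 and 0.88, Glud1 0.67, 0.61 and 0.62, Lamb3 0.89, 0.31 and 0.75, Onecut2 1.13, 1.18 and 1.26, Pklr 0.43, 0.42 and 0.43, Scd1 0.99, 0.74 and 0.74, Slc40a1 0.77, 0.73 and 0.75 and Wwc1 1.24, 1.09 and 1.15. Cyp2b10 gave 0.21 by total counts and 0.00 with log2(FPKM + 1). Wwc1 was also above 0 with DESeq2 size factors (0.06), the DESeq2 Wald test (0.06) and the 4 libraries alone (0.01). Over the fits without 1 library, Apoa4 ranged from -3.20 to 1.47, Igf2bp3 from -0.09 to 2.69, Gdf15 from -0.32 to 0.79, Sdsl from -0.08 to 0.87, Scd1 from -1.72 to 0.47 and Wwc1 from -0.23 to 0.12, with the change of sign without BM 3W library 1 for Apoa4 and Igf2bp3, without library 2 for Gdf15, Sdsl and Scd1, and without BM 3W library 2 or FH library 2 for Wwc1. The cause of these changes was not tested.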
